A study of Mus musculus with 9 samples.

Results

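Type I interferon stimulated genes were followed as 40 named mouse genes in CD45+ cells sorted from YUMM 2.1 melanomas. The 40 were given as a list of symbols, with no threshold on measured values, and the list was drawn up with earlier results of these data known. All 40 were found among the 22136 genes of the files, and all 40 were among the 13178 genes that passed the filter on low counts. YUMM 2.1 is a mouse melanoma cell line, here grown under the skin of immunocompetent C57BL/6J mice, and CD45 (Ptprc) is the surface protein shared by leukocytes. There were 3 libraries from tumours treated with anti-B7-H3, 3 from tumours treated with anti-PD1 and 3 from tumours given an IgG isotype control, with treatment begun at tumour volumes of 20 to 50 mm3. All 9 libraries share the host strain, the tumour line and the sort. Anti-PD1 blocks an inhibitory receptor of T cells, and B7-H3 (Cd276) is a member of the B7 family of immune checkpoint molecules. The labels do not say whether replicates came from separate animals, so p-values measure the spread between these libraries, which may in part be technical.

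Type I interferons are a family of secreted proteins, interferon beta and the interferon alphas among them, that signal through a receptor made of IFNAR1 and IFNAR2. The receptor activates the kinases JAK1 and TYK2, which phosphorylate transcription factors such as STAT2. STAT2 and IRF9 are parts of the complex ISGF3, which binds the interferon-stimulated response element (ISRE) in the promoters of its target genes. Many of the targets act against viruses, and several, such as STAT2, IRF7 and the RNA sensors, are themselves part of the pathway. In tumours, type I interferon is known for its action on dendritic cells and T cells.

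The ISRE was searched on both strands, as GAAA, any pair of bases and GAAA again, in RefSeq promoter windows of GRCm38.p6, from 250 bases before to 50 bases after each start site. A window was at hand for 31 of the 40 genes, and 16 of the 31 (51.6%) held the motif, against 1079 of all 27025 genes with a window (3.99%). The interferon-gamma activated site, searched as TTCNNNGAA, was in the windows of 7 of the 31 genes (22.6%) and of 9.55% of all genes. Stretches of 100 bases are shown for the genes whose values are described in most detail below and whose windows held an ISRE. They read 5′ to 3′ on the strand of the gene, with every base of an ISRE match in capitals. Matches can overlap, as they do in Isg15.
Ifit1, chr19:34640759-34640858, plus strand: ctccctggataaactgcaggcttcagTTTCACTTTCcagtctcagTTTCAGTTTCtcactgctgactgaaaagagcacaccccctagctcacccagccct
Ifit3, chr19:34583362-34583461, plus strand: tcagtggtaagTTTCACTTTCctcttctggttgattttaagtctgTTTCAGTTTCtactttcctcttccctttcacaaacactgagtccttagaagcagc
Ifit3b, chr19:34607758-34607857, plus strand: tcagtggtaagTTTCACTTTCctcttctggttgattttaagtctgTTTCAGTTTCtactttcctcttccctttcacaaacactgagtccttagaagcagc
Slfn8, chr11:83020804-83020903, minus strand: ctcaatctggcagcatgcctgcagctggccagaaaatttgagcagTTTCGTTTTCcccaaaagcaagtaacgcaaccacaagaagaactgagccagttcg
Ifitm3, chr7:141010715-141010814, minus strand: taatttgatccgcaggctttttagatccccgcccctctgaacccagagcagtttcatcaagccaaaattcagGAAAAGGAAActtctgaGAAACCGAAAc
Isg15, chr4:156200830-156200929, minus strand: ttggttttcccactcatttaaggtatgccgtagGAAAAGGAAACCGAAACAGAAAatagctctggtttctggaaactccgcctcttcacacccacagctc
Rsad2, chr12:26456518-26456617, minus strand: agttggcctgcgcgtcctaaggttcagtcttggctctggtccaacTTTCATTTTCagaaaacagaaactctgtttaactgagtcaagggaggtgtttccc
The stretches of Ifit3 and Ifit3b are the same letter for letter. The windows of Ifit2, Trim25, Oasl1, Oasl2, Irf7 and Irf9 held no match to these letters. Genes with and without a match stand among those that were lower and those that were higher than in IgG libraries, as given below.

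The libraries held 14487012 to 31533106 estimated counts, so that 3 counts corresponded to 0.0954 to 0.208 CPM (counts scaled to library size and composition). Ptprc and 3 other leukocyte genes summed to 7839 to 8696 CPM in anti-B7-H3, 6981 to 7679 in anti-PD1 and 6992 to 9325 in IgG libraries. IgG 2 and anti-PD1 3 stood apart from the others. IgG 2 lay at 192 on the first principal component, with the other 8 between -54.9 and 31.1, and anti-PD1 3 lay at -149 on the second. Of the 13178 tested genes, 1896 were at 0 in IgG 2 and 1248 in anti-PD1 3. The log2 fold changes of the 4 Ifit genes, Ifitm3 and Irf5 are given with and without both, and those of Socs3 and Ifi204 likewise for anti-PD1 only. As a reference for the marker counts below, edgeR called 0.827% of all genes higher and 0.0228% lower under anti-B7-H3 (adjusted p below 0.05). Under anti-PD1 it called 1.72% higher and 0.0152% lower. At an unadjusted p below 0.05 the shares were 5.63% higher and 3.18% lower under anti-B7-H3, and 7.17% and 3.73% under anti-PD1. DESeq2 called 2.71% higher and 0.212% lower under anti-B7-H3, and 4.5% and 0.448% under anti-PD1. Macrophage markers were higher in both antibody groups (6 of 9 passed the test in each), with summed levels of 694.6 to 1299 CPM in anti-B7-H3, 684 to 1098 in anti-PD1 and 67.7 to 163.7 in IgG libraries. Csf1r was at 0 in 1 IgG library, and Mertk in 1 anti-PD1 and 1 IgG library. Neutrophil markers were higher likewise (3 of 6 passed with anti-B7-H3 and 4 of 6 with anti-PD1), at 271.1 to 483, 647.1 to 929.4 and 79.4 to 104.6 CPM in anti-B7-H3, anti-PD1 and IgG libraries, with no marker at 0. T cell markers summed to 4280 to 6027 CPM in anti-B7-H3, 4517 to 5948 in anti-PD1 and 5409 to 7409 in IgG libraries. None of these 7 passed the edgeR test in either comparison (3 and 1 lower at an unadjusted p below 0.05, 0 and 0 in DESeq2). Monocyte markers summed to 1206 to 1433, 1087 to 1906 and 470.7 to 816.7 CPM in anti-B7-H3, anti-PD1 and IgG libraries. None of the 5 monocyte markers passed the edgeR test (1 and 1 higher at an unadjusted p below 0.05, 1 and 1 higher in DESeq2). Of these, Chil3, which myeloid cells of other kinds also express, alone had 331.5 to 712.9, 375.1 to 1085 and 0.0619 to 35.2 CPM, and without it the sums were 719.8 to 926.5, 711.6 to 821.0 and 470.7 to 791.9 CPM, where anti-B7-H3 and anti-PD1 overlap with IgG. Markers of plasmacytoid dendritic cells, known for their output of type I interferon, summed to 463.9 to 485.7, 412.1 to 474.1 and 276.1 to 426.6 CPM in these groups. None of 7 tested passed in edgeR (2 and 3 higher at an unadjusted p below 0.05, 1 and 1 higher in DESeq2). Bst2 is also among the 40, and without it the sums were 362.4 to 396.5, 340.0 to 381.3 and 208.2 to 275.8 CPM. Irf8, which other immune cells express too, made up much of the sum, at 248.6 to 338.8, 271.4 to 293.0 and 153.6 to 234.0 CPM. Siglech, a more specific marker of these cells, had 0, 5.89 and 2.93 CPM in anti-B7-H3, 3.50, 5.62 and 4.26 in anti-PD1 and 3.01, 20.9 and 1.76 in IgG libraries, which overlap. NK cell markers summed to 1432 to 1807, 1133 to 1479 and 363.6 to 1240 CPM in anti-B7-H3, anti-PD1 and IgG libraries, and conventional dendritic cell markers to 48.6 to 104.5, 81.5 to 109.9 and 31.9 to 44.9 CPM. The summed level of 3 fibroblast markers was low, at 7.27 to 13.7, 12.5 to 25.5 and 0.495 to 1.40 CPM, and that of 5 erythroid markers was 6.75 to 11.2, 2.03 to 30.2 and 7.49 to 435.3 CPM. No marker of these 4 types passed the edgeR test against IgG. Before adjustment, at a p below 0.05, 2 and 0 NK cell, 1 and 1 conventional dendritic cell and 1 and 1 fibroblast markers were higher under anti-B7-H3 and anti-PD1, and 3 and 2 erythroid markers were lower, while DESeq2 called 1 in each comparison for each of these types but NK cells, with none. B cell markers summed to 49.5 to 429.1, 47.2 to 118.9 and 23.4 to 81.9 CPM in anti-B7-H3, anti-PD1 and IgG libraries, which overlap. Each of these markers was highest in anti-B7-H3 1. None of 5 passed the edgeR test with anti-B7-H3 or anti-PD1 (1 and 0 higher at an unadjusted p below 0.05, 1 and 0 in DESeq2). The part of these cell types in the results below was not tested.

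With anti-B7-H3, 2 of the 40 genes fell and none rose relative to IgG (edgeR quasi-likelihood test, Benjamini-Hochberg adjusted p below 0.05). Both, Ifit3 and Ifit1, belong to the Ifit family, some of whose proteins bind viral RNA and block its translation. Across all 13178 genes 0.0228% (3 genes) were called lower and 0.827% (109 genes) higher. The median log2 fold change was -0.20 over the 40 genes and 0.02 over all genes tested. It was above 0 for 13 of the 40 and below 0 for 27, and above 0 for 52.1% of all genes. At an unadjusted p below 0.05, 8 of the 40 were lower and 2 higher (3.18% and 5.63% of all genes). DESeq2 called 3 of the 40 lower (Ifit1, Ifit3 and Ifit3b) and 1 higher (Ifitm3), against 0.212% and 2.71% of all genes. In a bulk library, fewer cells of a type and less RNA per cell cannot be told apart.

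With anti-PD1, none of the 40 passed the edgeR test relative to IgG in either direction, while 0.0152% of all genes (2 genes) were called lower and 1.72% (227 genes) higher. At an unadjusted p below 0.05, 5 of the 40 were lower and 3 higher (3.73% and 7.17% of all genes). DESeq2 called 4 lower (Ifit1, Ifit2, Ifit3 and Ifit3b) and 2 higher (Ifitm3 and Trim25), against 0.448% and 4.5% of all genes. The median log2 fold change was -0.07 over the 40 and -0.04 over all genes. It was above 0 for 17 of the 40 and below 0 for 23, and above 0 for 47.2% of all genes. Both antibody groups were set against the same 3 IgG libraries, so the comparisons with IgG are not independent of each other.

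**Figure D1:**
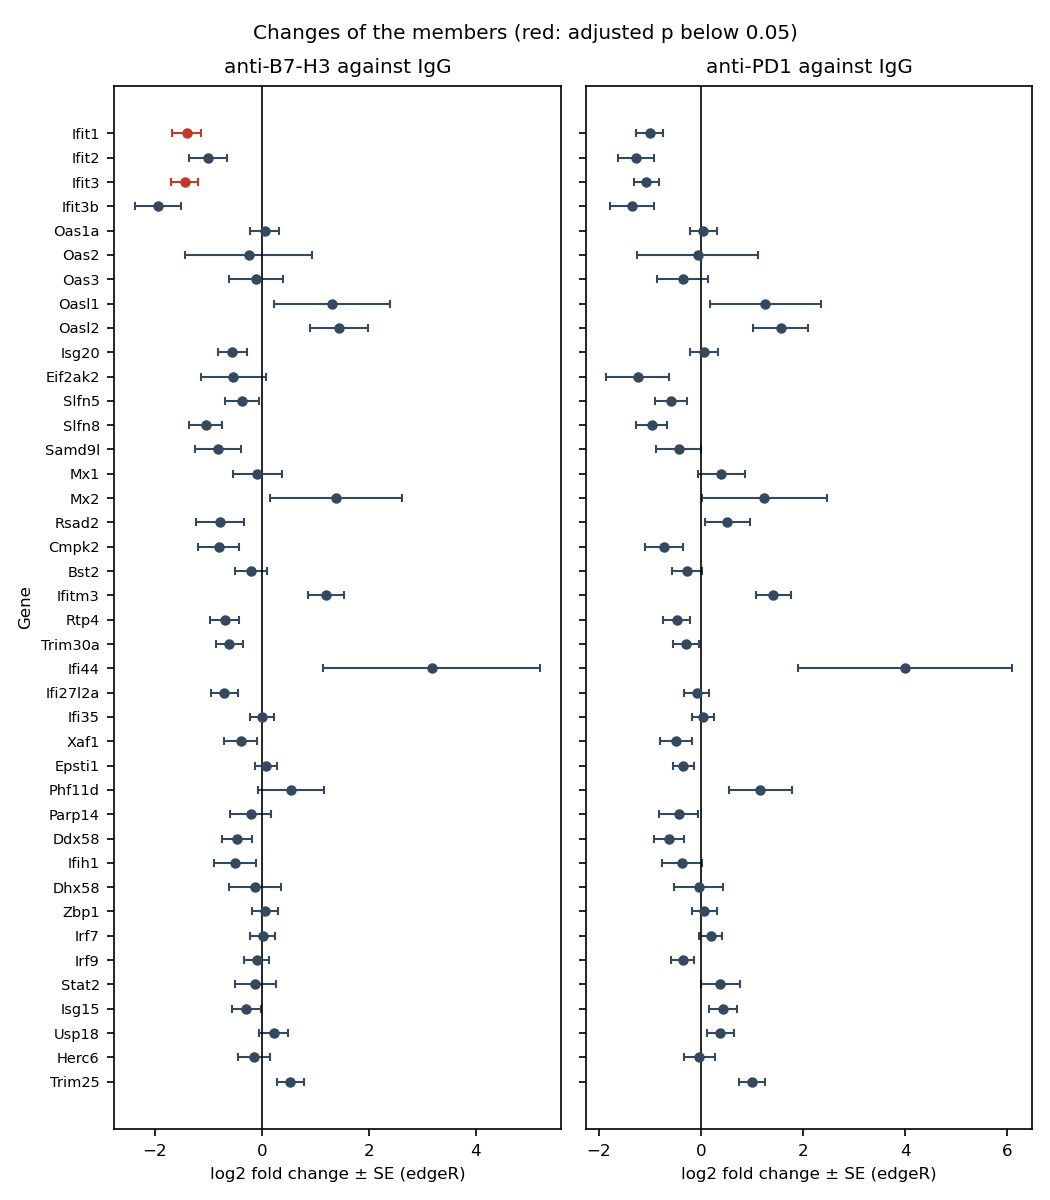
Log2 fold change (x axis, edgeR, bars are SE) of each of the 40 genes (y axis) in anti-B7-H3 against IgG and in anti-PD1 against IgG. Points in red passed an adjusted p of 0.05. The red points are Ifit1 and Ifit3 in the panel of anti-B7-H3 against IgG, at -1.40 and -1.44.

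The Ifit genes stand together on chromosome 19 between 34550694 and 34650009 (GRCm38), with Ifit2, Ifit3, Ifit3b and Ifit1 all on the plus strand. Ifit3 (34583531 to 34588731), which strengthens the binding of capped RNA by Ifit1 in human cells, had 29.4, 25.9 and 31.9 CPM in the 3 anti-B7-H3 libraries. It had 31.6, 42.6 and 39.0 CPM in the anti-PD1 libraries and 85.6, 56.8 and 94.6 CPM in the IgG libraries. Every antibody-treated library lay below every IgG library. With anti-B7-H3 Ifit3 averaged 29.1 ± 3.02 CPM, against 79.0 ± 19.8 with IgG (SD, n = 3 each), a log2 fold change of -1.44 ± 0.25 (SE) that passed the test (edgeR adjusted p = 0.0236). With anti-PD1 it averaged 37.7 ± 5.63 CPM, a log2 fold change of -1.06 ± 0.25 against IgG that did not pass in edgeR (adjusted p = 0.0619) and passed in DESeq2 (adjusted p = 0.00477). Without IgG 2 and anti-PD1 3 the log2 fold changes were -1.63 under anti-B7-H3 (edgeR adjusted p = 0.0102) and -1.28 under anti-PD1 (edgeR adjusted p = 0.049).

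Ifit1 (34640871 to 34650009), which binds viral RNA that lacks the cap methylation of host RNA, had 23.4, 23.5 and 23.6 CPM in the anti-B7-H3 libraries. It had 25.7, 24.9 and 42.5 CPM in the anti-PD1 libraries and 65.5, 71.1 and 49.6 CPM in the IgG libraries. The 3 anti-B7-H3 libraries lay close together and below all others, and anti-PD1 3 was the nearest to the IgG libraries. The mean was 23.5 ± 0.12 CPM with anti-B7-H3, 31.05 ± 9.95 with anti-PD1 and 62.0 ± 11.2 with IgG (SD, n = 3 each). The log2 fold change against IgG was -1.40 ± 0.27 under anti-B7-H3 (edgeR adjusted p = 0.0407) and -0.999 ± 0.27 under anti-PD1 (edgeR adjusted p = 0.116). Without IgG 2 and anti-PD1 3, Ifit1 stood at -1.29 and -1.19 on that scale (edgeR adjusted p = 0.038 and 0.0707).

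The calls for Ifit3 and Ifit1 with anti-B7-H3 depend on which libraries are in the fit and on the counts used. The edgeR adjusted p of Ifit3 was 0.0656 without IgG 1, 0.067 without IgG 3, and 0.0832, 0.142 and 0.0858 without anti-B7-H3 1, 2 and 3. That of Ifit1 was 0.1 without IgG 1, 0.0995 without IgG 2, 0.137, 0.214 and 0.166 without anti-B7-H3 1, 2 and 3, and 0.0668 and 0.0631 without anti-PD1 1 and 2, which share the estimate of the spread. With the 6 libraries of this comparison alone, the edgeR adjusted p was 0.0935 for Ifit3 and 0.0686 for Ifit1, and with counts from length-scaled TPM it was 0.0308 for Ifit3 and 0.0544 for Ifit1. The log2 fold change itself lay between -1.63 and -1.29 for Ifit3 in 19 other settings and between -1.54 and -1.28 for Ifit1 in 18.

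Ifit3b (34607970 to 34613401) is a near copy of Ifit3. Their coding sequences of 1212 bases each differ at 11 positions (99.1% identity), and 78.1% of the 31-base words of each are found in the other, so their counts can be split wrongly between them. Ifit3b had 2.97, 5.62 and 5.06 CPM in the anti-B7-H3 libraries, 5.08, 7.29 and 8.35 in the anti-PD1 libraries and 17.4, 19.8 and 15.6 in the IgG libraries. The IgG libraries were again the highest 3 of the 9. The log2 fold change against IgG was -1.94 ± 0.43 under anti-B7-H3 (edgeR adjusted p = 0.0841) and -1.35 ± 0.42 under anti-PD1 (edgeR adjusted p = 0.207), and -1.85 and -1.41 without IgG 2 and anti-PD1 3 (edgeR adjusted p = 0.113 and 0.29). With the counts of Ifit3 and Ifit3b added up, the log2 fold change was -1.52 ± 0.23 under anti-B7-H3 (edgeR adjusted p = 0.00948) and -1.11 ± 0.22 under anti-PD1 (edgeR adjusted p = 0.0305), so that the sum passed the test in both.

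Ifit2 (34550694 to 34576419), an RNA-binding member of the family, was described after its values were seen. It had 13.7, 12.8 and 16.3 CPM in the anti-B7-H3 libraries, 14.7, 14.3 and 6.56 in the anti-PD1 libraries and 27.0, 28.0 and 30.6 in the IgG libraries. Both antibody groups lay below IgG without overlap, and anti-PD1 3 was the lowest library. Against IgG, Ifit2 had a log2 fold change of -1.003 ± 0.35 under anti-B7-H3 and -1.27 ± 0.35 under anti-PD1 (edgeR adjusted p = 0.408 and 0.132), and of -1.02 and -0.99 without IgG 2 and anti-PD1 3 (edgeR adjusted p = 0.194 and 0.232). The summed level of the 4 genes was 69.4, 67.9 and 76.9 CPM in anti-B7-H3, 77.1, 89.1 and 96.4 CPM in anti-PD1 and 195.5, 175.6 and 190.3 CPM in IgG libraries. The other 36 genes of the list together averaged 1853 ± 77.0 CPM in anti-B7-H3, 2061 ± 200.8 in anti-PD1 and 2135 ± 135.1 in IgG libraries (SD, n = 3 each). By library, their sum was 1890.2, 1765 and 1905.2 CPM in anti-B7-H3, 1868, 2045.9 and 2268.7 in anti-PD1 and 2164.8, 1987.9 and 2253.2 in IgG libraries. For this sum too, anti-B7-H3 lay below IgG without overlap, while anti-PD1 overlapped with IgG. Abundant genes weigh most in such a sum.

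**Figure D2:**
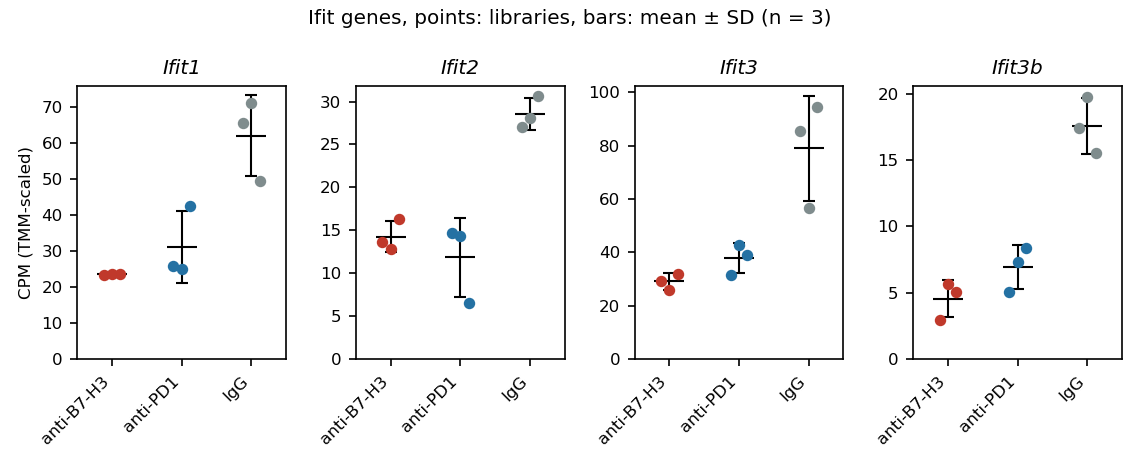
CPM (y axis) of Ifit genes in the 3 anti-B7-H3, 3 anti-PD1 and 3 IgG libraries (x axis); points are libraries, bars are the mean ± SD. For Ifit3 the antibody-treated libraries sit between 25.9 and 42.6 CPM and the IgG libraries between 56.8 and 94.6.

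Between and beside these genes on chromosome 19, Ifit1bl1, a relative of Ifit1 on the minus strand, averaged 25.8 ± 2.10 CPM in anti-B7-H3, 25.4 ± 3.79 in anti-PD1 and 45.9 ± 8.95 in IgG libraries (SD, n = 3 each). Its log2 fold change was -0.83 ± 0.25 in anti-B7-H3 and -0.85 ± 0.25 in anti-PD1 libraries (edgeR adjusted p = 0.276 and 0.157), and DESeq2 called the second (adjusted p = 0.0595 and 0.0417). Ifit1bl1 was looked at for its place, after the values of the Ifit genes were known. Ifit1bl2, also on the minus strand, was low. It averaged 0.488 ± 0.621 CPM in anti-B7-H3, 1.79 ± 1.34 in anti-PD1 and 0.875 ± 1.06 in IgG libraries, which overlap. Of the 31-base coding words of Ifit1, 18.5% are shared with other genes, most of them with Ifit1bl2. Lipa, which encodes lysosomal acid lipase and lies next to the cluster, averaged 42.8 ± 6.89, 46.9 ± 5.89 and 40.5 ± 9.02 CPM in anti-B7-H3, anti-PD1 and IgG libraries. Slc16a12, on the far side, had no count in any library. Strand is not kept by these library kits, and overlapping genes on opposite strands cannot be separated by it.

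The other 10 RNA-targeting genes did not pass the test in either comparison with IgG. Slfn8 (chromosome 11, 83002158 to 83020810), a Schlafen gene of immune cells picked here after its values were seen, had 33.4, 27.9 and 63.1 CPM in anti-B7-H3, 39.0, 45.3 and 48.0 in anti-PD1 and 105.6, 79.9 and 72.0 in IgG libraries. All 6 antibody-treated libraries lay below the IgG libraries. Its log2 fold change against IgG was -1.05 ± 0.31 under anti-B7-H3 and -0.96 ± 0.31 under anti-PD1 (edgeR adjusted p = 0.257 and 0.219). Of its 31-base coding words, 21.2% are shared with Slfn9. Samd9l, a restrictor of viral translation, ranged from 69.4 to 144.0 CPM in anti-B7-H3, from 95.6 to 194.5 in anti-PD1 and from 83.1 to 285.2 in IgG libraries, which overlap. Eif2ak2, the RNA-activated kinase PKR, lay at 3.12 to 17.8, 4.85 to 8.73 and 7.89 to 20.6 CPM in anti-B7-H3, anti-PD1 and IgG libraries, which overlap as well. Slfn5 lay at 19.5 to 25.5, 14.7 to 24.1 and 20.4 to 38.4 CPM in these groups.

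The 2',5'-oligoadenylate synthetases make the messenger that activates RNase L, and the Oasl proteins are their relatives. Oas1a averaged 33.9 ± 7.74 CPM in anti-B7-H3, 33.7 ± 5.66 in anti-PD1 and 32.5 ± 5.64 in IgG libraries, although 60.7% of its 31-base words are shared, nearly all with Oas1g. Oas3 averaged 20.1 ± 4.11 CPM in anti-B7-H3, 17.0 ± 9.69 in anti-PD1 and 21.7 ± 9.94 in IgG libraries. Oas2 was low, at 2.86 to 4.67, 0.042 to 8.91 and 2.16 to 6.62 CPM in anti-B7-H3, anti-PD1 and IgG libraries. The groups overlapped for each of these 3 genes. Oasl2 and Oasl1 were picked after their values were seen. Oasl2 had 16.7, 8.59 and 15.7 CPM in anti-B7-H3, 15.97, 18.1 and 10.4 in anti-PD1 and 8.87, 2.23 and 3.89 in IgG libraries, and anti-B7-H3 2 overlapped with IgG 1. Its log2 fold change was 1.45 ± 0.54 under anti-B7-H3 and 1.57 ± 0.54 under anti-PD1 (edgeR adjusted p = 0.446 and 0.279). Oasl1 had 10.2, 6.16 and 12.7 CPM in anti-B7-H3, 9.21, 11.1 and 7.77 in anti-PD1 and 6.07, 0 and 5.55 in IgG libraries, with anti-B7-H3 2 just above IgG 1 (edgeR adjusted p = 0.837 and 0.757).

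Among the other antiviral effectors, 15 genes in all, none passed the edgeR test. Ifitm3 (chromosome 7, 141009586 to 141010770), a membrane protein that hinders the entry of viruses through endosomes, had the smallest p-value of these. It had 185.2, 184.9 and 128.0 CPM in anti-B7-H3, 201.4, 210.0 and 171.3 in anti-PD1 and 50.5, 47.0 and 120.0 in IgG libraries. All antibody-treated libraries lay above the IgG libraries, with IgG 3 close to anti-B7-H3 3. For Ifitm3 the log2 fold change was 1.20 ± 0.34 under anti-B7-H3 (edgeR adjusted p = 0.236) and 1.42 ± 0.34 under anti-PD1 (edgeR adjusted p = 0.0687). Without IgG 3 it was 1.76 and 1.99 and passed the test in both (edgeR adjusted p = 0.00937 and 0.00356), and without IgG 2 and anti-PD1 3 it was 0.96 and 1.27 and did not pass (edgeR adjusted p = 0.492 and 0.204). DESeq2 called Ifitm3 higher with both antibodies (adjusted p = 0.0276 and 0.00139). Ifitm3 is expressed by myeloid cells too, and the macrophage and neutrophil marker sums given above were higher in the same libraries; their part in this difference was not tested.

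**Figure D3:**
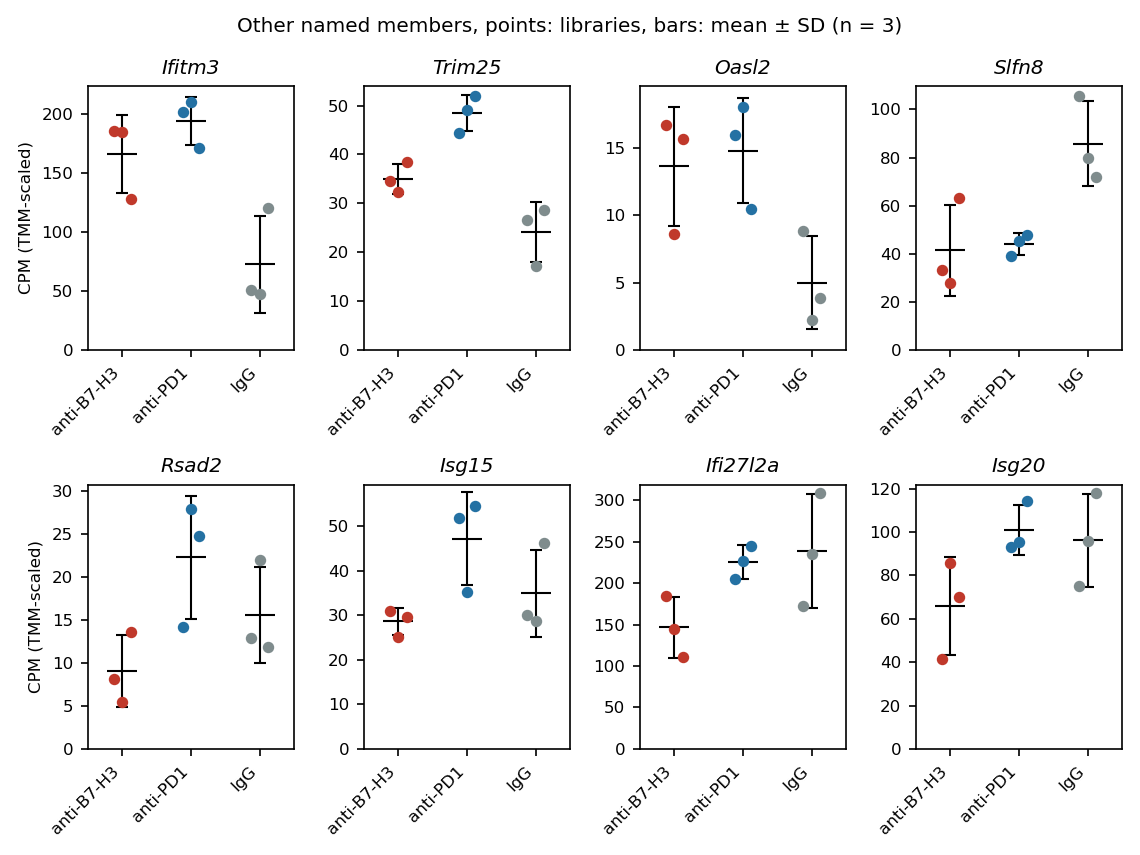
CPM (y axis) of further members in the anti-B7-H3, anti-PD1 and IgG libraries (x axis); points are libraries, bars are the mean ± SD. For Ifitm3 the antibody-treated libraries sit between 128.0 and 210.0 CPM and the IgG libraries between 47.0 and 120.0.

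Ifi27l2a, a small interferon-induced membrane protein, was the most abundant of the 40 per length, at a mean of 922.4 deposited TPM (transcript abundance scaled for length and depth) over the 9 libraries. Ifitm3 followed at 306.7 TPM, Bst2 at 133.6 and Isg20 at 113 TPM. At the low end, Oas2 averaged 1.02 TPM and Ifi44 0.575 TPM. Ifi27l2a had 184.6, 145.2 and 111.1 CPM in anti-B7-H3, 204.3, 226.9 and 244.6 in anti-PD1 and 171.8, 235.4 and 308.3 in IgG libraries. The anti-B7-H3 libraries overlapped with the IgG libraries through IgG 1 and lay below all anti-PD1 libraries. Bst2 (tetherin, which holds budding virus on the cell surface and is a marker of plasmacytoid dendritic cells) had 101.5, 89.6 and 69.7 CPM in anti-B7-H3, 83.2, 92.8 and 72.1 in anti-PD1 and 81.2, 67.8 and 150.8 in IgG libraries. Its groups overlapped, and IgG 3 was the highest library. Ifi44 was low, with 12, 34 and 58 estimated counts in anti-B7-H3, 0, 92 and 80 in anti-PD1 and 8, 0 and 0 in IgG libraries.

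None of the rest of this class passed the test. Epsti1, Ifi35 and Parp14, an ADP-ribosyltransferase, had log2 fold changes between -0.43 and 0.08 in the 2 comparisons with IgG. Xaf1, Trim30a and Rtp4, a transmembrane chaperone relative, lay between -0.69 and -0.29, and Cmpk2, a nucleotide kinase that neighbours Rsad2, at -0.81 ± 0.38 under anti-B7-H3 and -0.72 ± 0.38 under anti-PD1. Of the Mx dynamin-like GTPases, Mx1 is known to be defective in C57BL/6 mice. It averaged 8.23 ± 2.38 CPM in anti-B7-H3, 11.5 ± 3.49 in anti-PD1 and 8.71 ± 3.07 in IgG libraries. Mx2 had 14.5, 2.76 and 4.16 CPM in anti-B7-H3, 4.12, 9.88 and 5.22 in anti-PD1 and 2.96, 0 and 5.14 in IgG libraries, and these groups overlapped. The annotation lists Mx2 as a polymorphic pseudogene, and 14.7% of its 31-base coding words are shared with Mx1. Phf11d lay at 3.27 to 5.70, 4.22 to 8.58 and 2.72 to 3.31 CPM in anti-B7-H3, anti-PD1 and IgG libraries, and 28.4% of its 31-base words are shared with other genes.

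**Figure D4:**
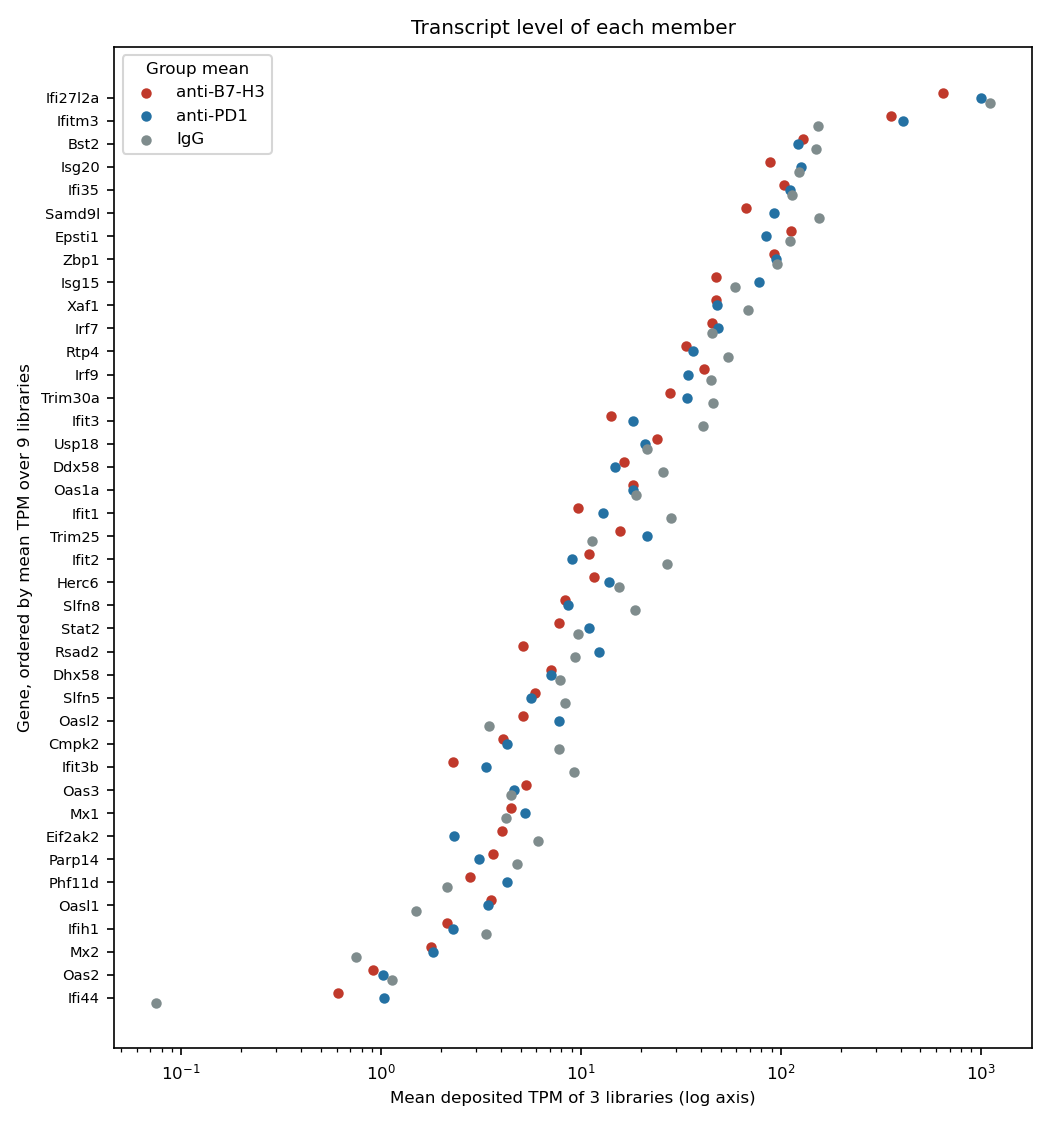
Mean deposited TPM (x axis, log axis) of each of the 40 genes (y axis, ordered by the mean over 9 libraries) in the anti-B7-H3, anti-PD1 and IgG groups, 3 libraries each. Ifi27l2a leads at 922.4 TPM over all libraries and Ifi44 is last at 0.575 TPM.

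The genes that carry the pathway itself showed no call. Of the sensors, Ddx58 (RIG-I) averaged 86.0 ± 3.42 CPM in anti-B7-H3, 77.2 ± 15.8 in anti-PD1 and 118.8 ± 44.8 in IgG libraries. Ifih1 (MDA5), Dhx58 (LGP2) and Zbp1, a sensor of left-handed nucleic acid, had log2 fold changes between -0.50 and 0.07 in both comparisons with IgG. Irf7, which amplifies interferon alpha production, averaged 96.5 ± 12.1, 109.1 ± 19.04 and 95.4 ± 23.3 CPM in anti-B7-H3, anti-PD1 and IgG libraries. Stat2 and Irf9, partners in ISGF3, lay between -0.35 and 0.38 on the log2 scale against IgG. The smallest edgeR adjusted p among the 3 transcription factors was 0.649.

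The ISG15 system attaches the ubiquitin-like protein Isg15 to other proteins, with Herc6 as its ligase in the mouse and Usp18 as the protease that removes it. Usp18 averaged 32.0 ± 2.77 CPM in anti-B7-H3, 35.7 ± 7.03 in anti-PD1 and 27.4 ± 6.13 in IgG libraries, which overlap. Herc6 averaged 49.6 ± 10.5, 53.8 ± 19.9 and 54.8 ± 14.1 CPM in these groups. Trim25, the ubiquitin ligase that acts on RIG-I, had 34.5, 32.2 and 38.4 CPM in anti-B7-H3, 44.5, 49.0 and 52.0 in anti-PD1 and 26.6, 17.2 and 28.6 in IgG libraries. The 3 groups did not overlap, with anti-PD1 the highest. Against IgG the log2 fold change of Trim25 was 0.54 ± 0.25 under anti-B7-H3 and 1.00 ± 0.25 under anti-PD1 (edgeR adjusted p = 0.584 and 0.0878), and DESeq2 called the second (adjusted p = 0.00358).

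**Figure D5:**
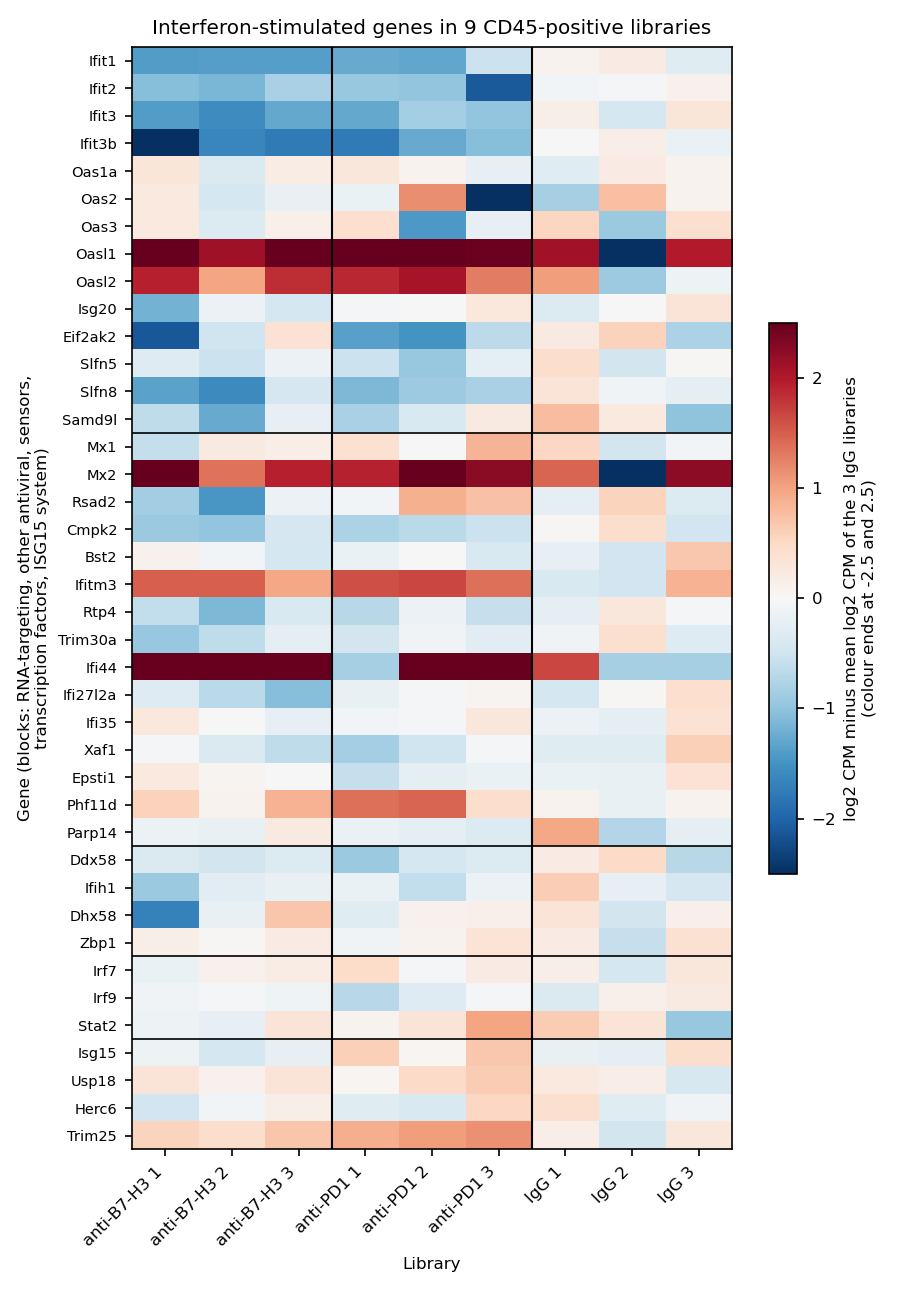
Log2 CPM of each of the 40 genes (rows, in blocks by role) in each library (columns), as the difference from the gene's mean over the 3 IgG libraries (colour, limited to 2.5 in each direction). The Ifit rows are lower in the antibody-treated libraries than in the 3 IgG libraries, and single rows such as Oasl1, at 0 in IgG 2, reach the end of the colour scale.

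Counted over libraries, the groups did not overlap with IgG, on the lower side, for 6 of the 40 genes with anti-B7-H3 (5.49% of all genes) and for 6 with anti-PD1 (6.52%). Beside the 4 Ifit genes and Slfn8, these were Rtp4 with anti-B7-H3 and Cmpk2 with anti-PD1. On the higher side there were 4 genes under anti-B7-H3 (Ifi44, Ifitm3, Oasl1 and Trim25; 9.96% of all genes) and 5 under anti-PD1 (Ifitm3, Oasl1, Oasl2, Phf11d and Trim25; 9.99%). The higher counts are a share of the 40 near that of all genes. With 3 libraries against 3, an exact permutation test of a single gene cannot give a p below 0.1.

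Set directly against anti-PD1, anti-B7-H3 gave no call among the 40 or among all 13178 genes in edgeR. At an unadjusted p below 0.05, 4 of the 40 were lower and none higher (1.97% and 1.26% of all genes), and DESeq2 called none of the 40, against 0.0759% of all genes lower and 0.0379% higher. The 4 were Rsad2, Isg15, Ifi27l2a and Isg20. Rsad2 (viperin, which makes a chain-terminating nucleotide) had 8.16, 5.42 and 13.6 CPM in anti-B7-H3 and 14.2, 27.9 and 24.8 in anti-PD1 libraries, beside 12.9, 22.04 and 11.8 in IgG libraries. Every anti-B7-H3 library lay below every anti-PD1 library, by a log2 fold change of -1.30 ± 0.45 (edgeR adjusted p = 1). Isg15 had 31.1, 25.2 and 29.7 CPM in anti-B7-H3 and 51.8, 35.3 and 54.6 in anti-PD1 libraries, beside 29.98, 28.8 and 46.3 in IgG libraries, a log2 fold change between the antibodies of -0.72 ± 0.28 (edgeR adjusted p = 1). Isg20, a 3' to 5' exonuclease, had 41.4, 85.7 and 70.2 CPM in anti-B7-H3 and 92.9, 95.4 and 114.2 in anti-PD1 libraries, beside 74.99, 95.9 and 117.8 in IgG libraries. Its anti-B7-H3 libraries lay below the anti-PD1 libraries, with anti-B7-H3 1 the lowest of the 9. The log2 fold change was -0.61 ± 0.28 for Isg20 and -0.62 ± 0.25 for Ifi27l2a (both edgeR adjusted p = 1). None of these 4 differences stands after correction over all genes. The groups did not overlap for 6 of the 40 on the lower side (6.4% of all genes), the 4 above with Ifit1 and Trim25, and for 1, Epsti1, on the higher side (7.13%). The median log2 fold change over the 40 was -0.12, and 0.04 over all genes.

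Of 20 type I and III interferon ligand genes listed, none had enough counts to be tested. Ifnb1, interferon beta, had 15 and 11 counts in anti-B7-H3 2 and 3 and 30 counts in anti-PD1 2, and 0 in the other 6 libraries. No other ligand had more than 4 counts in a library. Beside Ifnb1, the ligand genes were at or near the floor of 3 counts, so a difference was not detectable at this depth. Of the receptor genes, 5 of 6 were tested and none passed the edgeR test in either comparison with IgG. At an unadjusted p below 0.05, 1 was higher under anti-B7-H3 and 1 under anti-PD1 (5.63% and 7.17% of all genes), and DESeq2 called none. Ifnar1 averaged 71.4 ± 15.8 CPM in anti-B7-H3, 79.3 ± 7.20 in anti-PD1 and 41.9 ± 21.1 in IgG libraries (SD, n = 3 each; edgeR adjusted p = 0.537 and 0.308 against IgG). Ifnar2 averaged 111.0 ± 16.4, 124.5 ± 5.19 and 98.5 ± 10.5 CPM in these groups, and Ifngr1, of the interferon gamma receptor, 1142 ± 408.1, 1544 ± 149.0 and 1541 ± 269.5 CPM. None of 5 signalling genes passed in edgeR (0 and 0 at an unadjusted p below 0.05, 0 and 0 in DESeq2). For Jak1, Jak2 and Stat3 the log2 fold changes against IgG lay between -0.31 and -0.01.

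Among 13 tested genes of interferon induction, 1 rose in both antibody groups and none fell in edgeR, where 0.827% and 1.72% of all genes were called higher under anti-B7-H3 and anti-PD1. At an unadjusted p below 0.05, 2 were higher in each comparison and 1 was lower under anti-PD1. Of all genes, 5.63% and 7.17% were higher at this threshold under anti-B7-H3 and anti-PD1, and 3.73% were lower under anti-PD1. DESeq2 called 1 higher in each, and under anti-PD1 also 1 lower, Tbk1, a kinase that activates interferon-inducing transcription factors (log2 fold change -0.94 ± 0.25, DESeq2 adjusted p = 0.0352, edgeR adjusted p = 0.119), named here after its values were seen. Of all genes, DESeq2 called 2.71% and 4.5% higher under anti-B7-H3 and anti-PD1, and 0.448% lower under anti-PD1. The gene that rose was Irf5, a transcription factor downstream of Toll-like receptors that is abundant in myeloid and B cells. It had 140.1, 155.7 and 150.8 CPM in anti-B7-H3, 159.8, 162.4 and 118.0 in anti-PD1 and 56.9, 70.4 and 61.0 in IgG libraries. The groups lay far apart, with log2 fold changes of 1.25 ± 0.19 and 1.23 ± 0.19 for anti-B7-H3 and anti-PD1 (edgeR adjusted p = 0.0118 and 0.00808). The anti-B7-H3 call was lost without anti-B7-H3 2 or 3 (edgeR adjusted p = 0.0596 and 0.0546) and with the 6 libraries alone (0.0502). Without IgG 2 and anti-PD1 3 the log2 fold changes were 1.34 and 1.45 (edgeR adjusted p = 0.00991 and 0.00685). Of 9 inhibitors, none passed the edgeR test with anti-B7-H3 and 1 passed, higher, with anti-PD1 (1.72% of all genes). At an unadjusted p below 0.05, 2 were higher with anti-B7-H3 (5.63% of all genes). With anti-PD1, 1 was higher and 1 lower (7.17% and 3.73% of all genes). DESeq2 called only Socs3, higher in both comparisons (adjusted p = 0.00402 and 2.92e-07), against 2.71% and 4.5% of all genes. Ptpn6, a phosphatase that was not called with anti-B7-H3 (edgeR adjusted p = 0.504), averaged 558.3 ± 102.6 CPM there, against 333.4 ± 118.7 with IgG. Socs3, which binds and blocks JAK kinases, was the gene that passed in edgeR with anti-PD1. It had 147.3, 183.1 and 176.1 CPM in anti-B7-H3, 221.1, 187.9 and 247.2 in anti-PD1 and 112.5, 88.8 and 86.0 in IgG libraries. The IgG libraries were the lowest 3. Against IgG, Socs3 had a log2 fold change of 0.82 ± 0.19 under anti-B7-H3 and of 1.19 ± 0.19 under anti-PD1 (edgeR adjusted p = 0.109 and 0.01), and without IgG 2 and anti-PD1 3 the second was 1.04 (edgeR adjusted p = 0.0714).

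A further 34 type I targets outside the 40 gave 1 gene that passed the test with anti-PD1 (higher) and none with anti-B7-H3 in edgeR. Of all genes, 1.72% were called higher with anti-PD1. At an unadjusted p below 0.05, 3 were higher and 3 lower under anti-B7-H3 (5.63% and 3.18% of all genes). Under anti-PD1, 3 were higher and 5 lower (7.17% and 3.73% of all genes). DESeq2 called 1 higher under anti-B7-H3, against 2.71% of all genes. Under anti-PD1 it called 2 higher and 1 lower, Ifit1bl1, against 4.5% and 0.448% of all genes. Phf11b averaged 103.0 ± 18.0 CPM in anti-B7-H3, 126.0 ± 11.2 in anti-PD1 and 162.6 ± 18.4 in IgG libraries (edgeR adjusted p = 0.257 and 0.533). The median log2 fold change of the 34 was -0.21 under anti-B7-H3 and -0.10 under anti-PD1. The gene that passed was Ifi204, of the p200 family of DNA-binding proteins. It had 23.6, 20.4 and 19.6 CPM in anti-B7-H3, 23.4, 26.5 and 29.6 in anti-PD1 and 9.68, 5.14 and 10.2 in IgG libraries. All antibody-treated libraries were above the IgG libraries. Its log2 fold change was 1.34 ± 0.33 under anti-B7-H3 and 1.67 ± 0.34 under anti-PD1 (edgeR adjusted p = 0.146 and 0.032). The anti-PD1 call was lost in 9 of 18 other settings, among them without IgG 1 (edgeR adjusted p = 0.0568), without anti-B7-H3 2 or 3 (0.0642 and 0.0655) and without anti-PD1 1, 2 or 3 (0.0972, 0.117 and 0.104). Without IgG 2 and anti-PD1 3 the log2 fold change of Ifi204 was 1.33 under anti-PD1 (edgeR adjusted p = 0.0769).

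Targets of interferon gamma, the type II interferon of T and NK cells, were read beside these. None of 16 tested passed the edgeR test with either antibody. At an unadjusted p below 0.05, 4 were higher and 1 lower with each. Of all genes, 5.63% were higher and 3.18% lower at this threshold with anti-B7-H3, and 7.17% and 3.73% with anti-PD1. DESeq2 called 3 higher with anti-B7-H3 (Cxcl9, Ciita and Ifng), against 2.71% of all genes. With anti-PD1 it called 4 higher (the same 3 and Nos2) and 1 lower (Irgm1), against 4.5% and 0.448% of all genes. Ifng is the gene of interferon gamma itself, which the list counted among the targets. Ifng and Nos2 are named here after their values were seen. The median log2 fold change of the 16 was -0.02 under anti-B7-H3 and 0.09 under anti-PD1. Cxcl9, a chemokine that draws T cells, had 93, 38 and 118 counts in anti-B7-H3, 36, 184 and 34 in anti-PD1 and 1, 0 and 0 in IgG libraries (edgeR adjusted p = 0.0807 and 0.0584). Its counts were above those of every IgG library in all 6 antibody-treated libraries. Ciita, the activator of MHC class II genes, averaged 37.7 ± 10.6 CPM in anti-B7-H3, 38.8 ± 9.56 in anti-PD1 and 10.5 ± 6.50 in IgG libraries (edgeR adjusted p = 0.199 and 0.107). Irgm1, a GTPase of the response to intracellular pathogens, averaged 87.2 ± 1.91 CPM in anti-B7-H3, 68.0 ± 5.65 in anti-PD1 and 114.1 ± 13.8 in IgG libraries (edgeR adjusted p = 0.565 and 0.0678).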

How the data were processed

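RNA of sorted CD45+ cells was amplified with a low-input cDNA kit, depleted of ribosomal RNA and made into Nextera XT libraries, per the labels' protocols; RNA had an integrity number of at least 7.0 and at least 500 ng was used. The deposited files give an estimated count and a TPM for each of 58083 transcripts per library, per the file headers. Per the submitters' processing notes, FastQC 0.11.8 and GRCm38 were used; the quantifier is not given in the sources used here. Of the transcripts, 57409 were matched to GENCODE M21, and the estimated counts were summed over 22136 genes and rounded to whole numbers; transcripts without a match held 0.236% to 0.547% of the counts. Transcript lengths were multiples of 3 for 87.3%, so most models hold the coding sequence alone.

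All 9 libraries were fitted together with edgeR 4.0.16 (limma 3.58.1, R 4.3.3; TMM, filterByExpr, robust quasi-likelihood), and p-values were adjusted over all 13178 genes. CPM values are TMM-scaled. DESeq2 1.42.0, other filters, length-scaled TPM counts, a replicate block, fits of 6 libraries and leaving out each library were the alternatives. The script was tested on simulated data. The members named with all libraries were those that passed the test, the 4 with the smallest p-values in a comparison with fewer than 4 calls, and the 4 highest by mean TPM. From other pathway lists, genes that passed were named, otherwise the 2 with the smallest p-values. Further genes are marked as picked after their values were seen, or given by role. The members and lists were chosen with earlier results of these data known. A combination of both antibodies is not analysed here. No 2 libraries agreed within sampling noise in any of the 36 pairs compared.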

Additional observations from a re-analysis of the deposited data

How the results depend on the processing

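None of 45 recomputed log2 fold changes changed direction in the other settings, among them the fit without IgG 2 and anti-PD1 3, which was chosen after seeing the data. Other genes named were not recomputed. For anti-B7-H3 against IgG, all genes called (112) became 385 with DESeq2, 64 with the replicate block, 44 with the 6 libraries alone and 59 to 144 when leaving out a library. The members called (2) became 4 with DESeq2, 1 with length-scaled TPM counts, 0 with the replicate block (edgeR adjusted p = 0.077 for Ifit3 and 0.14 for Ifit1), 0 with the 6 libraries alone and 0 to 2 when leaving out a library. For anti-PD1 against IgG, all genes called (229) became 652, 127 and 136 with DESeq2, the block and the 6 libraries, and 113 to 262 when leaving out a library. The members called (0) became 6 with DESeq2, 1 (Ifitm3) without a filter on low counts, 1 (Ifit3) without IgG 2 and anti-PD1 3, and 0 to 1 when leaving out a library; the median over the members became -0.27 without these 2 libraries. For anti-B7-H3 against anti-PD1, all genes called (0) became 15 with DESeq2 and 0 to 1 when leaving out a library, and no member was called in any setting. The reduced fits also hold fewer libraries, and the cause of these shifts was not tested. The replicate numbers did not pair the libraries: same-numbered libraries correlated between -0.12 and 0.156 in their deviations from the group means, and not every library correlated best with its own number.

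Low counts limit Ifi44, Oas2 and the interferon genes, and 3 libraries a group limit every test.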
